A study of Danio rerio with 6 samples.

Results

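The genes described here build, load and guard the early secretory pathway. The set comprised the coat, cargo receptor, translocon, disulfide isomerase, chaperone and stress factor genes of the endoplasmic reticulum (ER). Its members were picked by symbol from the deposited gene table, by the name stems of the families (*sec13*, *sec16*, *sec22* to *sec24*, *sec31*, *sec61* to *sec63*, *copb*, *copg*, numbered *tmed* and numbered *pdia*) and 13 further symbols. The rule uses no measured value, though it was drawn up with earlier results of these data known. This gave 55 genes of the 32520 listed.

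RNA-Seq was performed on heads of zebrafish larvae at 10 days post fertilization (dpf), in 3 pools of homozygous *fbln1* mutants (*fbln1*-/-, allele ulg075) and 3 pools of WT siblings, all of the AB strain and all from crosses of heterozygous parents. *fbln1* codes for fibulin 1, a glycoprotein of the extracellular matrix. The ulg075 line carries a small deletion in the coding region, made with CRISPR/Cas9. It was studied as a single allele. Each pool held 21 heads, assigned after genotyping of the rest of the body. The husbandry text of the labels names a transgenic line, ulg071 Tg, and whether these larvae carried that transgene is not stated. The labels and the methods on RNA extraction name heads, while the methods on sequencing name whole larvae. The pools are described as independent batches, and whether they came from separate parents is not stated, so p-values measure the spread between these pools only.

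Secreted and membrane proteins enter the ER through the Sec61 translocon, fold there with the help of chaperones and protein disulfide isomerases, and leave in vesicles coated by COPII. The inner COPII layer (Sec23 and Sec24) binds cargo and the outer layer (Sec13 and Sec31) shapes the vesicle. COPI vesicles, p24 proteins and KDEL receptors bring escaped ER residents and receptors back from the Golgi. When unfolded proteins build up, the sensors Ire1, Perk and Atf6 start the unfolded protein response, in which Xbp1 and Atf6 mainly switch on folding and transport genes and Atf4 and Ddit3 act downstream of Perk. The pathway is well known in the fish skeleton, since collagen is large and hard to export: zebrafish with mutations in *sec23a*, *sec24d* or *creb3l2* (*crusher*, *bulldog* and *feelgood*) form malformed head cartilage.

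The values are normalized counts, that is, reads per gene divided by one size factor per library. The libraries held 15174207 to 18721515 reads on genes, and 3 reads, taken as the floor, corresponded to 2.60 to 3.20 normalized counts. *fbln1* itself stood at 93.2, 53.1 and 39.9 normalized counts in mutant pools 1, 2 and 3, against 77.4, 136 and 70.4 in WT pools 1, 2 and 3. The groups overlapped, with a log2 fold change of -0.63 ± 0.33 (SE, adjusted p = 0.162, limma), so the level of *fbln1* neither supported nor contradicted the genotype labels. Of the head tissue markers (neural, lens, retina and pituitary genes) all 8 were detected, with a summed level of 127586 to 153212 in mutant pools and 123736 to 155787 in WT pools. Markers of other tissues were present as well. The sum of 15 exocrine pancreas markers was 305797, 371189 and 221617 in mutant pools 1, 2 and 3, against 220342, 120066 and 146898 in WT pools 1, 2 and 3. The sum of 8 intestine markers was 23159 to 53359 in mutant pools and 2187 to 2376 in WT pools, and that of 6 liver markers was 32739 to 36766 and 16891 to 21134. All 6 liver markers had a higher mean in mutant pools, from *tfa* (14198 against 2155) down to *fabp10a* (9056 against 8095, with overlapping pools). The sum of 4 thyroid and pituitary markers was 1772 to 2091 in mutant pools and 2080 to 2459 in WT pools. Of these, *tg* was called higher, *gh1* had every mutant pool below every WT pool without a call, and *prl* and *pomca* had overlapping pools. The sum of 11 bone and cartilage matrix markers was 16969 to 22157 in mutant pools and 1648 to 2129 in WT pools, with *bglap* at 0 in all 6 libraries. Collagen genes made up most of that sum. Of the other markers, *matn1* and *sp7* had every mutant pool above every WT pool, and *spp1* and *runx2b* had overlapping pools. Pancreas, bone and cartilage cells secrete heavily, and the part that these tissues had in the results that follow was not tested. In pools of whole heads, a change in the number of cells of a type and a change in RNA per cell cannot be told apart.

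Fold changes are on the log2(normalized count + 1) scale, mutant minus WT, so that a positive value means higher in mutants. Calls required both an absolute log2 fold change over 0.5 and an adjusted p below 0.05 (limma, with Benjamini-Hochberg adjustment over all 20691 genes tested). All 55 members were tested, and 53 of them also passed the filter on low values in WT pools alone. The exceptions, *tmed6* and *tmed1a*, passed only through their mutant values. Of the 55 members, 20 (36.4%) were called higher in mutants, where 15.4% of all tested genes were. None was called lower by limma, edgeR or DESeq2, where limma called 2.68% of all tested genes lower, a share of calls that changed by over 1.5 times without mutant pool 2, mutant pool 3 or WT pool 1 (258, 1100 and 253 genes, against 555 with all libraries). At an unadjusted p under 0.05, 7 members were lower, all by less than the fold limit. By adjusted p alone, 26 members (47.3%) were higher and 3 (5.45%) lower, where 18.9% of all tested genes were higher and 15.1% lower. In 29 members (52.7%) every mutant pool lay above every WT pool and in 8 (14.5%) every mutant pool lay below, where 24.5% and 24.3% of all tested genes did so. The median log2 fold change was 0.30 over the members and -0.03 over all tested genes. Without the 2 genes that were low in WT, 18 of 53 were called higher and the median was 0.22. The share of all tested genes called higher with such genes left out is not given here.

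The members did not move as one block. The chaperones, disulfide isomerases and KDEL receptors held 11 of the 20 calls among 13 genes, and the p24 cargo receptors another 6 among 11, or 4 among 9 without *tmed6* and *tmed1a*. The COPII coat held 3 among 16 (18.8%), a share close to the 15.4% of all tested genes called higher. The COPI coat (3 genes), the translocon (6 genes) and the transcription factors (6 genes) held none by limma, edgeR or DESeq2, while at an unadjusted p under 0.05 the translocon had 3 genes higher and 1 lower, the transcription factors 1 higher and 3 lower, and the COPI coat 0. The median log2 fold change was 0.97 for the disulfide isomerases, 0.77 for the KDEL receptors, 0.69 for the chaperones and 0.50 for the p24 family (0.35 without *tmed6* and *tmed1a*). It was 0.20 for the translocon, 0.08 for the COPI coat, 0.06 for the COPII coat and -0.04 for the transcription factors, the last of which was 0.02 without mutant pool 3.

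**Figure D1:**
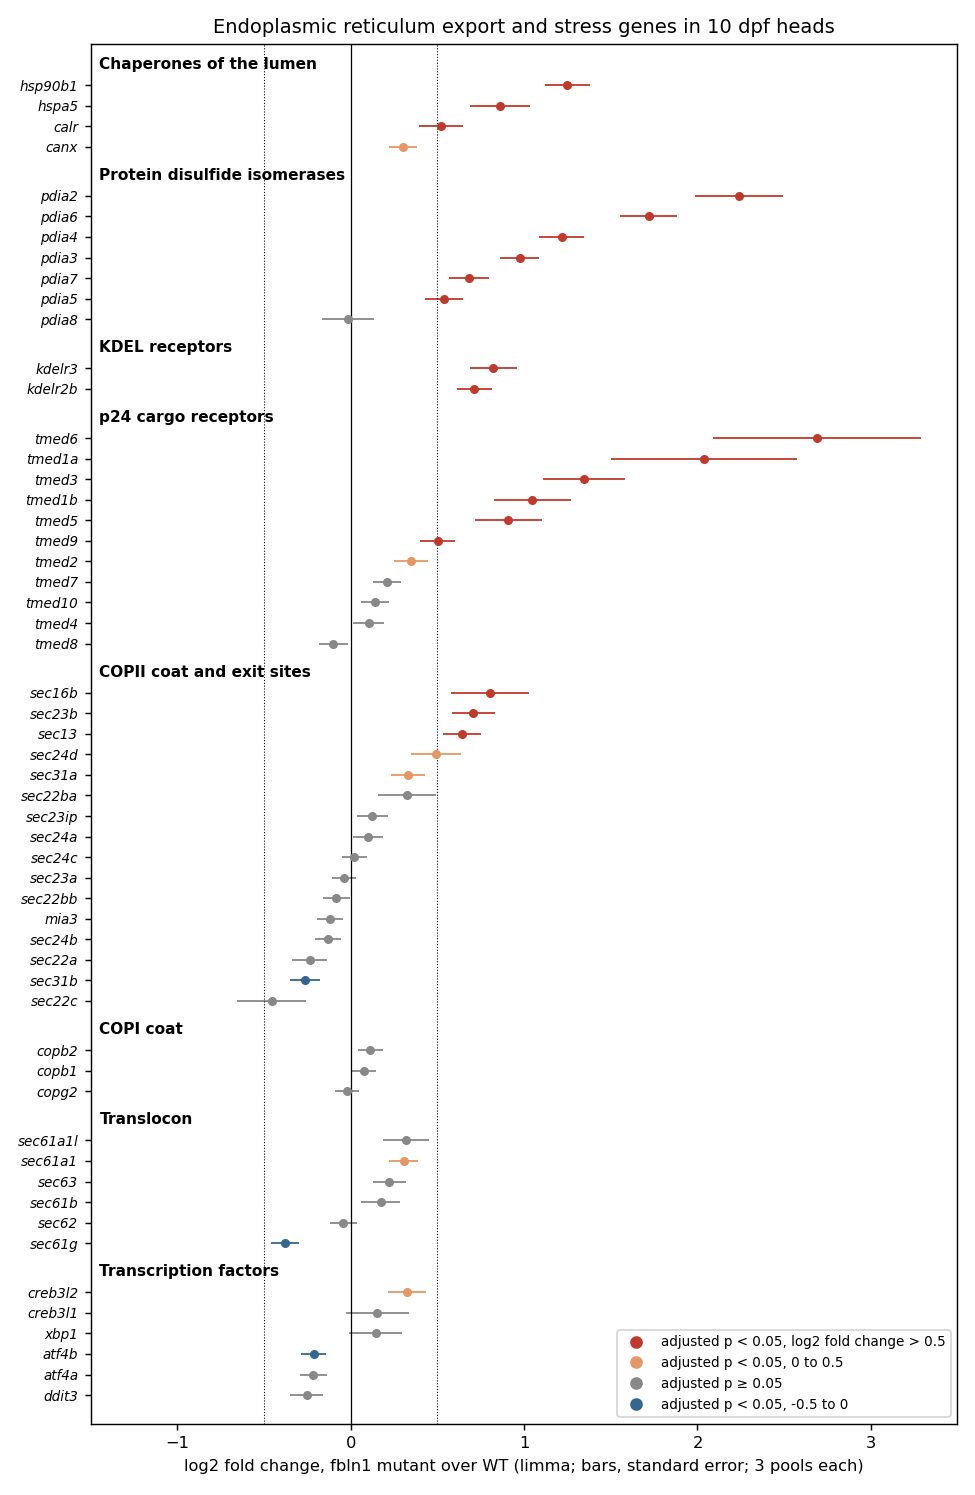
The 55 members by role, with the log2 fold change of *fbln1* mutant over WT heads on the horizontal axis (limma on log2 of the normalized count + 1; points, fitted values; bars, standard error; 3 pools each; dotted lines, the fold limit of 0.5 on either side). Red points are the 20 called members, which sit in the folding, retrieval and cargo receptor groups and at *sec16b*, *sec23b* and *sec13*, while the transcription factors lie between -0.26 and 0.32.

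The major luminal chaperones rose in mutant heads. *hsp90b1*, which codes for Grp94, the ER form of Hsp90, had 2494, 2926 and 2137 normalized counts in mutant pools 1, 2 and 3, against 954, 1264 and 960 in WT pools 1, 2 and 3. All mutant pools exceeded all WT pools, with a log2 fold change of 1.25 ± 0.13 (SE, adjusted p = 7.6e-05, limma). *hspa5*, which codes for BiP, the Hsp70 that binds nascent chains and keeps the stress sensors silent, had 3142, 3230 and 2086 normalized counts in mutant pools, against 1295, 1924 and 1421 in WT pools. The groups came closest at mutant pool 3 and WT pool 2, and the log2 fold change was 0.86 ± 0.17 (SE, adjusted p = 0.0044, limma).

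The 2 lectin chaperones in the set, which hold glycoproteins until they are folded, had smaller fold changes. Of related genes outside the set, *calr3a* (1.84) and *calr3b* (1.45) were called higher, and *clgn* (-0.15) was not called. Calreticulin (*calr*) had 1395, 1568 and 1186 normalized counts in mutant pools, against 865, 1140 and 890 in WT pools. Its log2 fold change of 0.52 ± 0.12 (SE, adjusted p = 0.0098, limma) was near the fold limit, and it was 0.43 without mutant pool 2, 0.45 without WT pool 1 and 0.47 without WT pool 3, each of which ended the call. Calnexin (*canx*), the membrane-bound counterpart, had 3896, 4208 and 3594 normalized counts in mutant pools, against 3041, 3428 and 3025 in WT pools. These groups were apart as well, and its log2 fold change of 0.30 ± 0.08 (SE, adjusted p = 0.018, limma) passed the p threshold and not the fold limit. The adjusted p of *canx* was 0.059 without mutant pool 1, 0.056 without mutant pool 2, 0.074 without WT pool 1 and 0.076 without WT pool 3.

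Among the protein disulfide isomerases, which form and reshuffle disulfide bonds, 6 of 7 were called higher. *pdia2*, whose mammalian counterpart is the pancreatic isomerase, had 1029, 1452 and 600.5 normalized counts in mutant pools 1, 2 and 3, against 241, 207 and 169 in WT pools 1, 2 and 3. This was the widest gap in the group, 2.24 ± 0.26 on the log2 scale (SE, adjusted p = 0.00014, limma). From high to low, its mutant pools ran 2, 1, 3, as did their pancreas marker sums, while its WT pools ran 1, 2, 3 and their sums 1, 3, 2. Mutant pool 3 and WT pool 1, whose sums were close (221617 and 220342), had 600.5 and 241 normalized counts of *pdia2*. These are single pools, and the part of pancreas tissue in the *pdia2* values was not tested. *pdia6*, which works with BiP, had 992, 957 and 814 normalized counts in mutant pools, against 235, 379 and 241 in WT pools. The groups were far apart (log2 fold change 1.72 ± 0.17, SE, adjusted p = 4.3e-05, limma).

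*pdia4*, a large isomerase of the same folding complexes, had 715, 766 and 583 normalized counts in mutant pools, against 256, 342 and 289 in WT pools (log2 fold change 1.22 ± 0.13, SE, adjusted p = 9.3e-05, limma). *pdia3*, the partner of calnexin and calreticulin on glycoproteins, had 2249, 2564 and 1866 normalized counts in mutant pools, against 1084, 1255 and 1042 in WT pools (0.97 ± 0.11, SE, adjusted p = 0.00017, limma). In both genes the lowest mutant pool, pool 3, exceeded the highest WT pool, pool 2, by a wide margin. The remaining called isomerases were *pdia7* (log2 fold change 0.68, adjusted p = 0.0015, limma) and *pdia5* (0.54, adjusted p = 0.0044, limma). The call of *pdia5* ended without mutant pool 1 (0.45) or WT pool 2 (0.49). The exception, *pdia8*, had 206, 274 and 242 normalized counts in mutant pools, against 225, 294 and 213 in WT pools. Its groups overlapped fully, with a log2 fold change of -0.02 ± 0.15 (SE), and its sign changed under TMM scaling (0.02).

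Both KDEL receptors in the set, which return proteins that carry the ER retention signal (BiP, Grp94 and the isomerases among them), rose. *kdelr3* had 220, 204 and 199 normalized counts in mutant pools, against 133, 115 and 105 in WT pools, a log2 fold change of 0.82 ± 0.14 (SE, adjusted p = 0.0015, limma). *kdelr2b* had 858, 707 and 672 normalized counts in mutant pools, against 453, 448 and 455 in WT pools. The WT pools were nearly equal, and the difference was 0.71 ± 0.10 on the log2 scale (SE, adjusted p = 0.00051, limma).

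**Figure D2:**
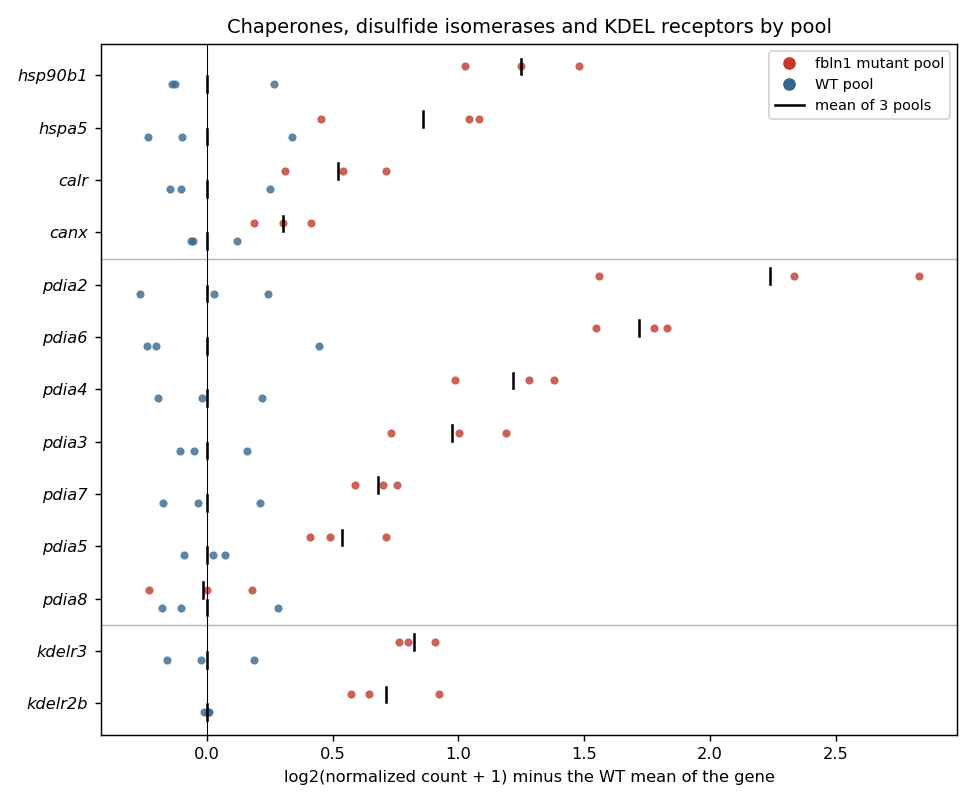
Chaperones, disulfide isomerases and KDEL receptors in each pool, as log2(normalized count + 1) minus the WT mean of the gene (red, *fbln1* mutant pools; blue, WT pools; bars, means of 3 pools). Mutant points stand right of all WT points in every gene but *pdia8*, and the widest gap is that of *pdia2* (log2 fold change 2.24).

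The p24 family gave 6 calls among 11 genes, of which *tmed6* and *tmed1a* entered the test only through their mutant values. These proteins form complexes that ride between ER and Golgi and recruit cargo into COPII and COPI vesicles. The called members were, with the exception of *tmed9*, those with the fewest reads, a count that is not corrected for gene length. *tmed3* had 243, 235 and 174 normalized counts in mutant pools, against 56.8, 94.2 and 111 in WT pools, and its lowest mutant pool was above its highest WT pool (log2 fold change 1.34 ± 0.24, SE, adjusted p = 0.0020, limma). *tmed1b* had 54.3, 58.3 and 53.7 normalized counts in mutant pools, against 25.8, 26.4 and 26.7 in WT pools (1.05 ± 0.22, SE, adjusted p = 0.0058, limma). Pools within a group were close together in this gene. *tmed6*, a p24 protein found in secretory epithelia of mammals, had 51, 70 and 20 reads in mutant pools, against 3, 4 and 12 in WT pools. Summed reads, scaled by size factor, gave a ratio of 7.13 with an exact 95% interval of 4.40 to 12.2, which covers counting error only, and the log2 fold change was 2.69 ± 0.60 (SE, adjusted p = 0.0071, limma). *tmed1a* had 28, 51 and 28 reads in mutant pools, against 18, 5 and 4 in WT pools, a ratio of 3.81 (2.48 to 6.04). Its log2 fold change was 2.04 ± 0.54 (SE, adjusted p = 0.015, limma), and its adjusted p was 0.070 without mutant pool 2 and 0.054 without WT pool 3. WT pool 1 stood apart from the other WT pools in *tmed1a*. The counting of reads between the close copies *tmed1a* and *tmed1b* is uncertain.

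The p24 genes with the most reads among those not called had smaller fold changes. *tmed10* had 2368, 2316 and 2120 normalized counts in mutant pools, against 2161, 2155 and 1871 in WT pools, with overlapping groups and a log2 fold change of 0.14 ± 0.08 (SE, adjusted p = 0.21, limma). *tmed2*, its partner in the p24 complex, had 1767, 1897 and 1463 normalized counts in mutant pools, against 1346, 1386 and 1276 in WT pools. The groups did not overlap, and the log2 fold change of 0.35 ± 0.10 (SE) passed the p threshold (adjusted p = 0.019, limma) and not the fold limit. The adjusted p of *tmed2* rose to at most 0.073 when 1 library was left out, and it was above the threshold without mutant pool 1, mutant pool 2, WT pool 1 or WT pool 3. Among the p24 genes with fewer details given here, *tmed5* (0.91, adjusted p = 0.0058, limma) and *tmed9* (0.50, adjusted p = 0.0038, limma) were called. *tmed9* lay on the fold limit and was at 0.47 without mutant pool 1, 0.45 without mutant pool 2, 0.48 without WT pool 1 and 0.45 without WT pool 3. The other members, *tmed4*, *tmed7* and *tmed8*, had log2 fold changes of -0.10 to 0.21 and did not pass the p threshold.

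In the COPII coat, *sec23b* and *sec13* rose and their relatives did not pass the call. *sec23b*, a gene for the inner coat protein that activates the Sar1 GTPase, had 1345, 1250 and 915 normalized counts in mutant pools 1, 2 and 3, against 708, 735 and 678 in WT pools 1, 2 and 3. The log2 fold change was 0.71 ± 0.13 (SE, adjusted p = 0.0022, limma). Its paralog *sec23a*, the *crusher* gene, had 1214, 1192 and 1171 normalized counts in mutant pools, against 1254, 1167 and 1256 in WT pools, with overlapping groups (-0.04 ± 0.07, SE, adjusted p = 0.70, limma). The log2 ratio of *sec23a* over *sec23b* was -0.15, -0.07 and 0.36 in mutant pools and 0.82, 0.67 and 0.89 in WT pools, a difference of -0.75. An exact two-sided permutation test of that ratio gave p = 0.1, the smallest that 3 against 3 pools can give (0.267 after adjustment over the 4 paralog pairs compared).

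Of the cargo-binding Sec24 subunits none was called by limma. *sec24d*, the *bulldog* gene, had 642, 598 and 430 normalized counts in mutant pools, against 349, 423 and 402 in WT pools. Mutant pool 3 was just above WT pool 2, and the log2 fold change of 0.49 ± 0.14 (SE, adjusted p = 0.024, limma) lay just under the fold limit. *sec24d* was called with TMM scaling (0.52) and by edgeR (0.54) and DESeq2 (0.51), and its adjusted p was 0.093 without mutant pool 1, 0.082 without mutant pool 2, 0.0996 without WT pool 1 and 0.058 without WT pool 3. *sec24c* had 1389, 1267 and 1366 normalized counts in mutant pools, against 1375, 1301 and 1293 in WT pools, and *sec24b* had 1778, 1687 and 1726, against 1891, 1763 and 2045. Neither passed the test (log2 fold changes 0.02 and -0.13, adjusted p = 0.86 and 0.20, limma), nor did *sec24a* (0.10). The log2 ratio of *sec24d* over *sec24c* differed by 0.47 between mutant and WT pools (exact two-sided permutation p = 0.2, adjusted 0.267).

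Of the outer coat, *sec13*, which also serves the nuclear pore, had 904, 878 and 774 normalized counts in mutant pools, against 492, 643 and 511 in WT pools (log2 fold change 0.64 ± 0.11, SE, adjusted p = 0.0019, limma). Its partners, named with their values known, went opposite ways by p alone. *sec31a* was higher (0.33, adjusted p = 0.026, limma) and *sec31b* lower (-0.26, adjusted p = 0.039, limma), and neither reached the fold limit. The *sec31b* difference did not pass the p threshold with any library left out (adjusted p 0.060 to 0.116, limma) or under TMM scaling. *sec31a* did not pass without mutant pool 1, mutant pool 2, WT pool 1 or WT pool 3 (adjusted p up to 0.103, limma).

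*sec16b*, a scaffold of ER exit sites, had 99.4, 119 and 103.1 normalized counts in mutant pools, against 85.7, 47.1 and 55.5 in WT pools. It was called (0.80 ± 0.23, SE, adjusted p = 0.021, limma), and the adjusted p was 0.076 without mutant pool 2, 0.064 without WT pool 2 and 0.068 without WT pool 3. *mia3*, which codes for Tango1, the receptor that loads collagen into COPII carriers, had 1076, 978 and 1067 normalized counts in mutant pools, against 1088, 1173 and 1130 in WT pools. Mutant pools were all slightly below WT pools, and the difference (-0.12 ± 0.07, SE, adjusted p = 0.24, limma) did not pass the test. The 4 *sec22* genes and *sec23ip* had log2 fold changes of -0.46 to 0.32, none past the p threshold. *sec22ba* and *sec22bb* code for a SNARE of ER to Golgi traffic, and reads of these copies may be split between them.

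**Figure D3:**
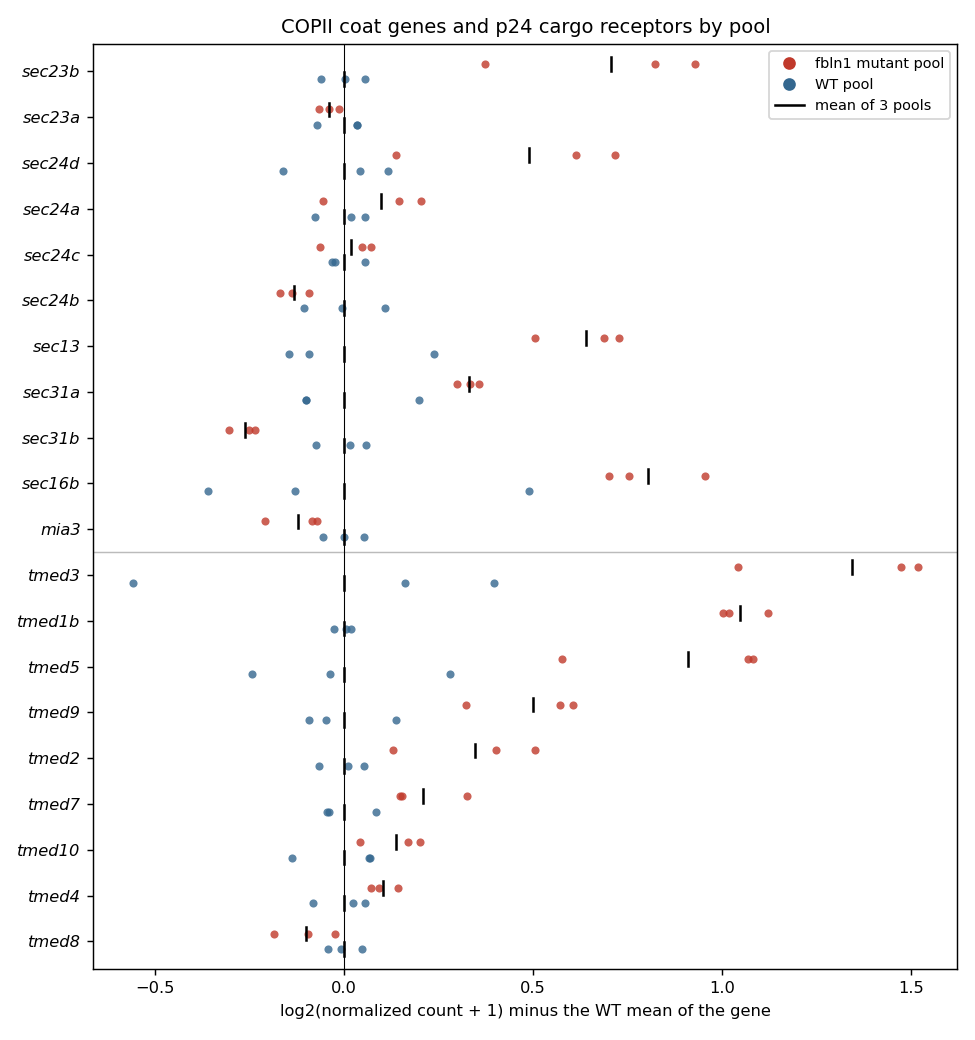
COPII coat genes (above the line) and p24 cargo receptors (below it) in each pool, as log2(normalized count + 1) minus the WT mean of the gene (red, *fbln1* mutant pools; blue, WT pools; bars, means of 3 pools). *sec23b* and *sec13* mutant points lie right of all WT points, with log2 fold changes of 0.71 and 0.64, while *sec23a* and *sec24c* points of both groups lie together (*tmed6*, *tmed1a*, *sec23ip* and the *sec22* genes are not drawn).

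The COPI coat members, which form retrograde vesicles, had fold changes near 0. *copb2* had 2274, 2035 and 1993 normalized counts in mutant pools, against 1966, 1915 and 1940 in WT pools, and *copb1* had 2240, 2274 and 2099, against 2136, 2110 and 2022. Their log2 fold changes of 0.11 and 0.08, and that of *copg2* (-0.02), did not pass the test (adjusted p 0.26 or more, limma).

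In the translocon, 2 abundant subunits differed in opposite directions, both by less than the fold limit. *sec61a1*, the channel itself, had 4394, 4607 and 3900 normalized counts in mutant pools, against 3683, 3254 and 3499 in WT pools (log2 fold change 0.30 ± 0.08, SE, adjusted p = 0.018, limma). Its adjusted p was above the threshold (0.067 at most) without mutant pool 1, mutant pool 2, WT pool 2 or WT pool 3. *sec61g*, a small subunit that clamps the channel, had 4409, 4752 and 4143 normalized counts in mutant pools, against 6239, 5633 and 5426 in WT pools. Every mutant pool was below every WT pool (-0.38 ± 0.08, SE, adjusted p = 0.0061, limma), and its adjusted p stayed at 0.032 or less with any 1 library left out. The other 4, *sec61a1l*, *sec61b*, *sec62* and *sec63*, ranged from -0.04 to 0.32 and did not pass the p threshold. *sec61a1* and *sec61a1l* are close copies, so the split of reads between them is uncertain.

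None of the 6 transcription factors in the set was called by limma, edgeR or DESeq2. *xbp1*, the target of Ire1, had 2953, 3603 and 2376 normalized counts in mutant pools, against 2324, 3265 and 2474 in WT pools. The groups overlapped, with a log2 fold change of 0.14 ± 0.15 (SE, adjusted p = 0.50, limma), and gene counts do not show the splicing through which Ire1 activates *xbp1*. *creb3l2*, the *feelgood* gene and an activator of COPII coat genes in zebrafish, had 391, 439 and 369 normalized counts in mutant pools, against 299, 303 and 354 in WT pools. The log2 fold change of 0.32 ± 0.11 (SE, adjusted p = 0.040, limma) passed the p threshold and not the fold limit. It did not pass without mutant pool 1 (0.085), mutant pool 2 (0.132), WT pool 1 (0.136) or WT pool 2 (0.108), nor by DESeq2 (0.061). *creb3l1*, known in mammals as OASIS and needed there for collagen output by osteoblasts, had 71.7, 93.8 and 72.8 normalized counts in mutant pools, against 73.3, 68.8 and 70.4 in WT pools. It differed by less than the spread between pools (0.15 ± 0.18, SE, adjusted p = 0.55, limma), and the ratio of *creb3l2* over *creb3l1* differed by 0.17 on the log2 scale (exact two-sided permutation p = 0.2, adjusted 0.267).

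The factors of the Perk branch stood slightly lower in mutants at the RNA level. Gene counts do not show the activity of Perk or the levels of these proteins. *atf4b* had 6898, 7057 and 6378 normalized counts in mutant pools, against 7633, 7945 and 7980 in WT pools, a log2 fold change of -0.21 ± 0.07 (SE, adjusted p = 0.043, limma). *atf4a* had 5120, 5021 and 5186 normalized counts in mutant pools, against 6479, 5470 and 5891 in WT pools (-0.22 ± 0.08, SE, adjusted p = 0.054, limma). *ddit3*, which codes for Chop, a factor of stress-induced cell death, had 1770, 1799 and 1697 normalized counts in mutant pools, against 1843, 2391 and 2086 in WT pools (-0.26 ± 0.09, SE, adjusted p = 0.055, limma). Of all tested genes 24.3% had every mutant pool below every WT pool, as did each of these 3 genes. They sat on the p threshold, so settings decided the side: under TMM scaling the adjusted p was 0.082 for *atf4b*, 0.092 for *atf4a* and 0.097 for *ddit3*, and under library size scaling it was 0.028, 0.024 and 0.052. For *atf4b* it was 0.040 without mutant pool 2 and 0.078 to 0.129 with another library left out. *atf4a* passed the p threshold without WT pool 2 (0.033) and *ddit3* without WT pool 1 (0.025). The log2 ratio of *atf4a* over *atf4b* differed by -0.0023 between mutant and WT pools (exact two-sided permutation p = 1), and reads of these copies may be split between them.

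**Figure D4:**
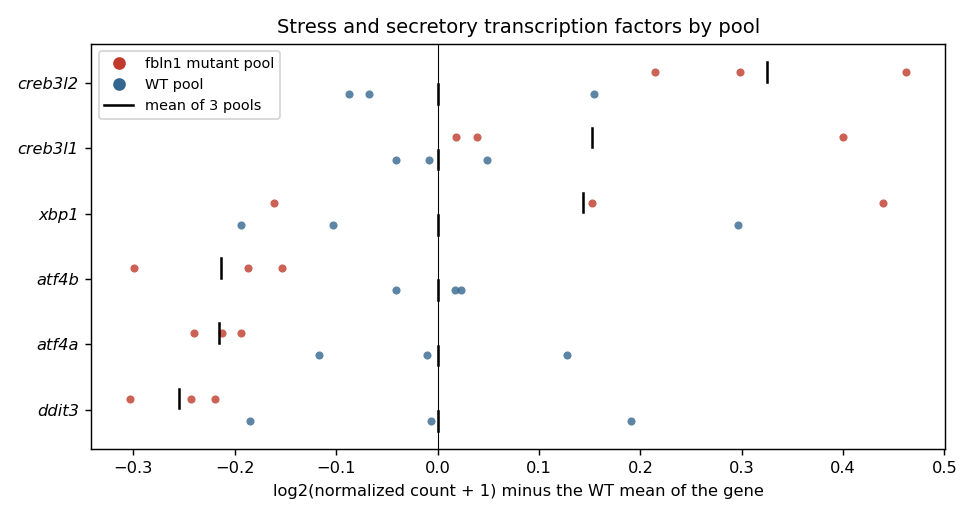
The 6 transcription factors in each pool, as log2(normalized count + 1) minus the WT mean of the gene (red, *fbln1* mutant pools; blue, WT pools; bars, means of 3 pools). Groups overlap for *creb3l1* and *xbp1*, *creb3l2* mutant points lie right of WT points by 0.32 on average, and *atf4b*, *atf4a* and *ddit3* mutant points lie left of WT points by 0.21 to 0.26.

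Pools ranked alike across many members. Mutant pool 3 was the lowest mutant pool in 42 of the 55 members and in 18 of the 20 called ones. It also had the lowest mutant sum of pancreas, intestine, liver and bone and cartilage markers, and the highest of head tissue markers. The lowest mutant sum of thyroid and pituitary markers was that of mutant pool 1. WT pool 2 was the highest WT pool in 30 members and in 11 called ones. WT pool 2 had the highest WT sum of bone and cartilage markers and of thyroid and pituitary markers. Its sums of pancreas, intestine and head tissue markers were the lowest of the WT pools. How often these pools ranked so over all tested genes was not counted. In all 20 called members the mutant pools lay above the WT pools without overlap, which is no further support, since the call rests on the same values. With each library left out in turn, 16 to 21 members were called higher. Over all tested genes 2318 to 3173 were, against 3191 with all libraries. Of the 20 called members, 15 were called in every such fit. How many of all called genes held in every such fit was not counted.

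Further genes of the pathway were counted in 6 lists. Among 29 further folding and disulfide genes, 15 (51.7%) were called higher and none lower, where 15.4% and 2.68% of all tested genes were (limma). The median log2 fold change was 0.93, or 0.79 without *tmx2a*, which was low in WT. At an unadjusted p under 0.05, 17 were higher and 0 lower (limma), and edgeR called 16 higher and 0 lower. The largest changes were those of *fkbp9*, a prolyl isomerase of the ER (451, 351 and 360 normalized counts in mutant pools, against 40.3, 57.5 and 27.7 in WT pools, 3.23 on the log2 scale), *fkbp7* (2.65) and the calreticulin paralog *calr3a* (1.84). The genes for the collagen chaperone Hsp47, *serpinh1a* and *serpinh1b*, picked out once their values were known, were at 1.81 and 1.60. The summed level of the bone and cartilage matrix markers, whose cells secrete collagen, was 10.6-fold higher in mutants. Collagen genes made up most of that sum, so it does not measure the number of bone and cartilage cells. In the same list the ratio of mutant over WT means was 2.56 for *sp7*, which was called higher and was low in WT. It was 6.31 for the cartilage matrix gene *matn1*, also called higher (adjusted p = 1.6e-06, limma), with every mutant pool above every WT pool. For *spp1* it was 1.29 and for *runx2b* 0.95, neither of them called (adjusted p = 0.141 and 0.824, limma). *runx2b* was scarce, with a mean of 20.1 normalized counts over the 6 libraries. The part of bone and cartilage tissue in the values of the folding genes was not tested.

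Among 27 genes of translocation and N-glycan transfer, 13 (48.1%) were called higher and 20 were higher by adjusted p alone, where 15.4% and 18.9% of all tested genes were. Their median was 0.45. None was called lower by limma, edgeR or DESeq2, and 0 were lower at an unadjusted p under 0.05. Leading genes were *sec11a* of the signal peptidase (1.23), *ostc* (1.12) and *ddost* (1.00) of the oligosaccharyltransferase. Of 17 further COPI rows 3 were called higher (17.6%, where 15.4% of all tested genes were), *arf4a* (0.96), the KDEL receptor gene *kdelr2a* (0.73) and *arf1* (0.67), and 7 were higher by p alone, where 18.9% of all tested genes were, with a median of 0.28. *arf4a* is listed under 2 identifiers, of which the one not called was low in WT, and without it the median was 0.23.

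Of 34 further genes of COPII and ER exit, 3 were called higher (8.82%), a smaller share than the 15.4% of all tested genes, and by adjusted p alone 9 were higher and 3 lower, where 18.9% and 15.1% of all tested genes were. The median was 0.10. The called genes were the cargo receptors *ergic1* (0.95) and *lman1* (0.82), and *sar1b* (0.78), the GTPase that starts coat assembly. *sar1b* had 1703, 1433 and 1306 normalized counts in mutant pools, against 847, 859 and 866 in WT pools. Its paralog *sar1ab* was at -0.05.

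Among 35 further genes of the unfolded protein response and of degradation, 10 (28.6%) were called higher and 1 lower, where 15.4% and 2.68% of all tested genes were. The median of the list was 0.02. Those with the largest changes were *creld2* (2.32), *manf* (1.51) and *dnajb11* (1.37), known as stress-induced folding factors. *creld2* passed the filter on low values only through its mutant pools, and without it 9 of 34 were called higher and the median was 0.0029. Of these genes 31 were placed in 3 groups by function, with their values known, and the 4 left over were the sensor genes *ern1* and *atf6*, which were not called, *wfs1b*, not called, and *wfs1a* (1.28, called higher). Of 11 chaperones and co-chaperones, 8 (72.7%) were called higher, or 7 of 10 without *creld2* (median 0.64, or 0.60 without it). Of 12 genes of ER-associated degradation, which pulls misfolded proteins out for disposal, none was called by limma, edgeR or DESeq2, with 1 higher (*derl2*) and 1 lower (*selenos*) by adjusted p alone, the same numbers at an unadjusted p under 0.05, and a median of -0.03. *derl2* lost its adjusted p without mutant pool 1 (0.114), WT pool 1 (0.075) or WT pool 2 (0.071), and *selenos* held it only without WT pool 2 (0.042, with 0.071 to 0.158 for another library left out). Of 8 genes tied to the Perk branch, 1 was called higher (*asns*, 0.55), 1 was called lower (*trib3*), and 4 with *trib3* were lower by adjusted p alone (median -0.34). By adjusted p alone, 18.9% of all tested genes were higher and 15.1% lower.

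*trib3*, a target of Atf4 and Chop, had 1181, 1409 and 980 normalized counts in mutant pools, against 1674, 1687 and 1786 in WT pools (log2 fold change -0.54 ± 0.11, SE, adjusted p = 0.0054, limma). It was at -0.41 without mutant pool 3 and at -0.49 by edgeR, each of which ended the call. The others lower by adjusted p alone in that branch were *eif2ak3* (-0.36), which codes for Perk, *chac1* (-0.36) and *ppp1r15a* (-0.33). None of these held its p threshold in every fit with 1 library left out. The adjusted p (limma) was 0.068 without mutant pool 1 and 0.057 without WT pool 2 for *eif2ak3*. For *chac1* it was 0.069 without mutant pool 1, 0.066 without WT pool 1 and 0.077 without WT pool 3. For *ppp1r15a* it was 0.057 without mutant pool 1, 0.054 without mutant pool 3 and 0.078 without WT pool 2. *asns*, also a target of Atf4, went the other way, with overlapping pools, and its call ended without mutant pool 1, mutant pool 2, WT pool 1 or WT pool 3 (adjusted p 0.077, 0.111, 0.091 and 0.110, limma). Of 2 tested relatives of the CREB3 factors, *creb3l3a*, known from liver and intestine, had 69, 51 and 53 reads in mutant pools, against 1, 3 and 0 in WT pools, a ratio of 41.5 (exact 95% interval 15.9 to 154). *creb3l3a* was called higher (adjusted p = 0.00012, limma) and passed the filter on low values only through its mutant pools. Its level and the liver and intestine marker sums given above were all higher in mutants. In normalized counts (70.7, 53.1 and 45.9 in mutant pools 1, 2 and 3) its mutant pools ranked as the intestine sums and not as the liver sums. In reads, the order of mutant pools 2 and 3 was reversed. Its WT pools, at 0 to 3 reads, ranked as neither. The part of these tissues in its level was not tested.

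**Figure D5:**
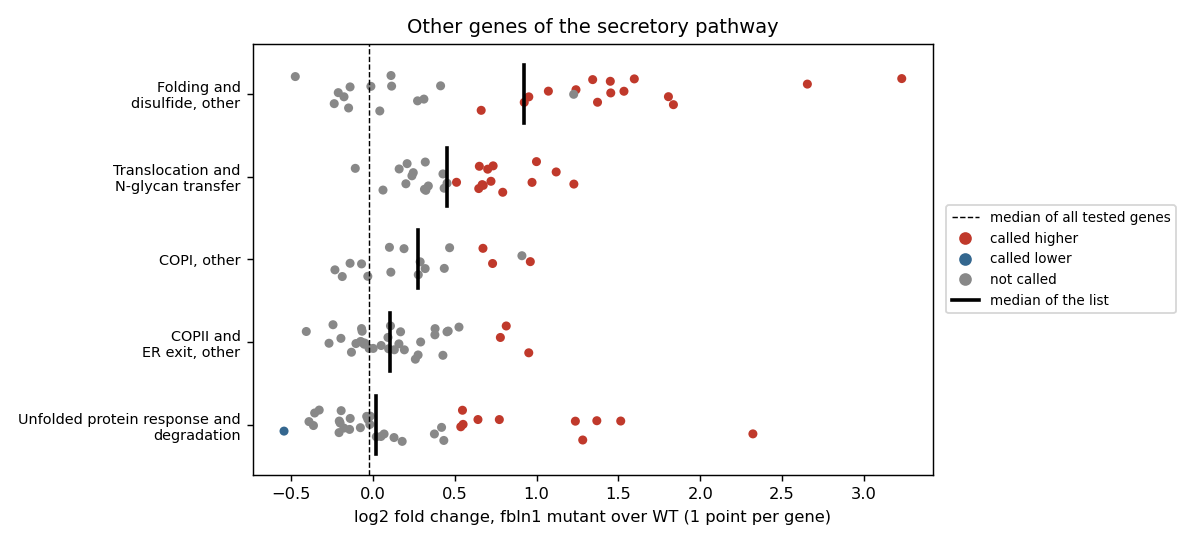
Further genes of the secretory pathway by list, with the log2 fold change of *fbln1* mutant over WT on the horizontal axis (1 point per gene, vertical jitter only; red, called higher; blue, called lower; grey, not called; thick bars, list medians; dashed line, the median of all tested genes, -0.03). Folding genes spread furthest to the right, with a median of 0.93, and the stress and degradation list spreads on both sides of its median of 0.02.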

How the data were processed

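RNA from the 6 head pools was made into stranded polyA libraries and sequenced single-end. The authors ran the nf-core rnaseq pipeline on GRCz11 with an Ensembl annotation and deposited a signal table, the gene counts divided by 1 DESeq2 size factor per library. Its values are whole multiples of 1 step per library (100% whole within 0.1), from which reads were recovered. The authors' comparison table holds fold changes and p-values and was not used.

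A filter of 10 normalized counts or more in 3 or more of 6 libraries kept 20691 of 32520 genes. Log2(normalized count + 1) was fitted with genotype in limma version 3.58.1 (R version 4.3.3), with a variance trend and Benjamini-Hochberg adjustment. Calls needed an absolute log2 fold change over 0.5 and an adjusted p below 0.05. edgeR version 4.0.16 and DESeq2 version 1.42.0 were run on the recovered reads as alternatives, beside other scalings, filters, pseudocounts, thresholds, a replicate block and leaving out each library. Paralog ratios were compared by exact permutation. The scripts were tested on simulated data. All 55 gene IDs were in the name table used, 49 with the same symbol.

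Members and lists were chosen with earlier results of these data known. Full values were given for the transcription factors, chaperones, KDEL receptors and *mia3*. In every other role they were given for up to 4 called members of largest change and up to 2 abundant members not called, and for the paralog pairs. Up to 3 called genes were named per wider list. Any other gene named was chosen with its value known. Pools of 1 group differed by more than sampling noise (chi-square per degree of freedom 6.07 to 16.01). Intervals and floors cover counting error only.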

Additional observations from a re-analysis of the deposited data

How the results depend on the processing

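Of the 20 members called higher, 14 were called under every alternative run except the test against a fold limit of 0.5 (limma's treat), which called 7. The other 6 were *calr*, *pdia5*, *sec16b*, *tmed1a*, *tmed6* and *tmed9*. The share of all called genes that held under those alternatives was not counted. With treat, 1254 genes were called higher and 2 lower over all tested genes. Genes called lower numbered 353 with TMM scaling, 320 with edgeR, 3116 with no limit on the fold change and 253 to 1100 with 1 library left out, and 3 members were lower with no such limit. Leaving out 1 library gave 16 to 21 members called higher, and 2318 to 3173 over all tested genes. The median of all tested genes was 0.0086 with TMM scaling, -0.060 with library size scaling, -0.061 with a filter at 50 normalized counts and -0.033 to -0.024 with 1 library left out. The median of the p24 receptors was 0.35 with that filter, and that of the unfolded protein response and degradation list was -0.017 with it and -0.011 with library size scaling. With 1 library left out, the median was -0.10 to 0.019 for the transcription factors, 0.051 to 0.16 for the further COPII genes and -0.039 to 2.77 for the 2 further CREB3 genes, for which it was 1.83 with a pseudocount of 5 and had no value with the filter at 50. *pdia8* changed sign with TMM scaling (0.018), edgeR (0.011), edgeR with the block (0.017) and with 1 library left out (-0.11 to 0.12). *sec24c* did so with library size scaling (-0.015) and with 1 library left out (-0.0074 to 0.059), and *xbp1* with 1 library left out (-0.0048 to 0.30). Their causes were not tested.

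Deviations from the group means were weakly and positively correlated in all same-numbered pairs of pools (0.043, 0.149 and 0.041). The other pairs ranged from -0.091 to 0.048, and 4 of 6 libraries correlated best with their own number. With the replicate number as a block, 20 members were called higher and 0 lower, and over all tested genes 3241 higher and 581 lower. No member's call changed with the block, while by adjusted p alone *atf4b* was no longer lower and *ddit3* was (adjusted p = 0.058 and 0.037, limma).

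Levels near the floor of 3 reads limit the precision of *tmed6*, *tmed1a* and *creb3l3a*.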
